A study of Mus musculus with 6 samples.

Results

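The fibroblast growth factor (FGF) ligands and receptors of the mouse hippocampus were followed across 6 RNA sequencing libraries as 9 genes chosen by name. They were the secreted ligands Fgf1, Fgf2 and Fgf9, the intracellular homologous factors Fgf12, Fgf13 and Fgf14, and the receptors Fgfr1, Fgfr2 and Fgfr3. Each symbol matched 1 row of the 32201 genes listed. The mice behind all 6 libraries were C57BL/6N males of 8 weeks, and all had undergone chronic unpredictable mild stress, in which mild stressors vary from day to day, a rodent model of depression. Of these, 3 libraries were from mice given baicalin at 20 mg/kg, a flavone glucuronide of the plant Scutellaria baicalensis, and 3 from mice given saline. Unstressed mice are not analysed here, so both groups share the stress. No label says that each library is a separate animal, so p-values here refer to spread among libraries, which may be technical.

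FGF signalling reaches the cell through receptor tyrosine kinases, which secreted ligands bind together with heparan sulfate chains of the cell surface. The activated receptors pass the signal through docking proteins to the RAS and ERK kinases, to PI3K and AKT, and to phospholipase C gamma, and ERK-responsive inhibitors feed back on the pathway. In the brain, astrocytes are a main source of FGF2, FGFR3 is typical of astrocytes and their precursors, FGFR2 is found in astrocytes and the oligodendrocyte lineage, and FGFR1 in neurons and neural progenitors. The homologous factors FGF11 to FGF14 have the same fold as the ligands but stay inside the cell, where they bind the tails of voltage-gated sodium channels and shape neuronal excitability.

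Library totals ran from 61303274 to 67957752 counts. Genes that mark hippocampal neurons were present in every library, with a summed level of 497 to 662 CPM (counts scaled to library size) for 6 CA1 pyramidal cell markers and 225 to 351 CPM for 6 dentate granule cell markers. Of 15 marker lists, only the CA1 sum did not overlap between the groups: it was 497 to 625 CPM with baicalin and 632 to 662 CPM with saline, and lowest in baicalin library 2. The same library had the highest sum of 6 choroid plexus markers, 92.4 CPM against 13.2 to 54.5 CPM in the others. Saline library 2 had the lowest dentate granule cell sum, 225 CPM against 329 to 351 CPM in the others. The part of this difference in the results below was not tested. In tissue of mixed cells, fewer cells of a type and less RNA per cell cannot be told apart.

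None of the FGF members passed the adjusted threshold of 0.05 between baicalin and saline. Of the 9 genes, 8 had a mean of at least 1 FPKM (fragments scaled to exon length and library size) and were tested, and Fgf2 lay below that filter. In edgeR (quasi-likelihood test, p-values adjusted by Benjamini-Hochberg over 13153 genes) 0 of the 8 were called, where 0.0456% of all genes tested were (0.0152% higher and 0.0304% lower with baicalin). DESeq2 and limma called 0 as well. At an unadjusted p under 0.05 there were 2 (Fgfr1 lower and Fgfr3 higher), with 11.8% of all genes tested at that level (5.46% lower and 6.34% higher). The groups did not overlap for 2 of the 8 (Fgfr1 and Fgfr2), both lower with baicalin, whereas 19.4% of all genes tested did not overlap and 9.52% were lower in this way. Adjusted p-values of the 8 ranged from 0.353 to 0.949 in edgeR. Their median log2 change was -0.10, with 6 of 8 negative, beside a median of -0.00062 over all genes tested.

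**Figure D1:**
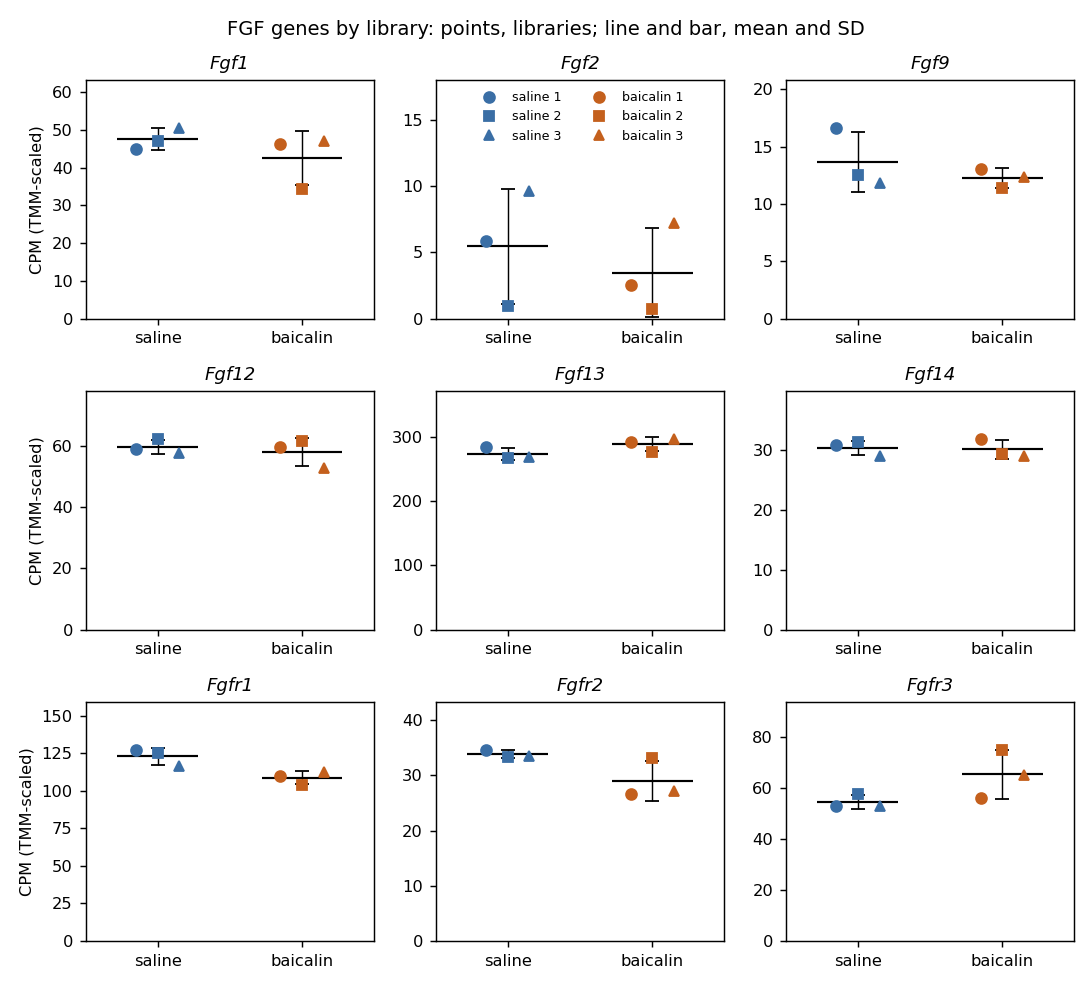
Level of each of the 9 FGF genes in CPM (vertical axes, each from 0) in 3 saline and 3 baicalin libraries. Points are libraries, the line is the group mean and the bar its SD. Fgfr1 and Fgfr2 are the panels in which every baicalin library lies below every saline library, and Fgf2 has the widest spread within both groups.

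The receptor genes Fgfr1 and Fgfr2 had lower levels in all 3 baicalin libraries than in any saline library, and Fgfr3 had a higher mean with baicalin, though none passed the adjusted threshold. Fgfr1 (ENSMUSG00000031565, mm10 chromosome 8, 25513654 to 25575718) encodes the main FGF receptor of neurons and neural progenitors. Its level was 109.9, 104 and 113 CPM in the baicalin libraries 1 to 3 and 127, 125 and 117 CPM in the saline libraries 1 to 3. The gap between the highest baicalin library and the lowest saline library was smaller than the SD of either group. Means were 109 ± 4.38 CPM with baicalin and 123 ± 5.65 CPM with saline (SD, n = 3 each), a log2 change of -0.18 ± 0.05 (SE, adjusted p = 0.353 in edgeR). Across 19 alternative analyses the estimate kept its sign, between -0.26 and -0.12. In baicalin libraries 1 to 3 the CA1 marker sums were 625, 497 and 577 CPM. In saline libraries 1 to 3 they were 662, 633 and 632 CPM. Like Fgfr1, these sums were lower with baicalin without overlap, and lowest in baicalin library 2. Summed neuron markers (6 genes) overlapped, at 10779 to 11466 CPM with baicalin and 11099 to 11589 CPM with saline. The part of CA1 cells in the Fgfr1 level was not tested.

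Fgfr2 (ENSMUSG00000030849, chromosome 7, 130162451 to 133123350) encodes a receptor of astrocytes and the oligodendrocyte lineage. It stood at 26.6, 33.1 and 27.1 CPM in baicalin libraries 1 to 3 and at 34.7, 33.4 and 33.5 CPM in saline libraries 1 to 3. Baicalin library 2 lay just under the saline range and the other baicalin libraries well below it. The log2 change was -0.22 ± 0.10 (SE, adjusted p = 0.430 in edgeR). Its annotated span reaches that of Ctbp2 on the same strand, with which it shares 314 exon bases (3.04% of its exons). Ctbp2, a transcriptional co-repressor gene, had 20.2 to 23.7 CPM with baicalin and 24.2 to 25.4 CPM with saline, so its groups did not overlap in the same direction. The assignment of reads in the shared exons was not given in the sources used here, and the part of Ctbp2 in the Fgfr2 value was not tested. Summed oligodendrocyte markers (7 genes, none at 0) were 2176, 2687 and 2370 CPM in baicalin libraries 1 to 3. In saline libraries 1 to 3 they were 2209, 2558 and 2232 CPM, so the groups overlapped. These sums were in the order of Fgfr2 in baicalin and in the reverse order in saline. The part of oligodendrocyte content in the Fgfr2 level was not tested.

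Fgfr3 (ENSMUSG00000054252, chromosome 5, 33721674 to 33737068) encodes the FGF receptor typical of astrocytes. Levels in baicalin libraries 1 to 3 were 56.1, 75.1 and 65.3 CPM, and in saline libraries 1 to 3 they were 53.1, 57.7 and 52.9 CPM. Baicalin library 1 lay within the saline range, and the other 2 baicalin libraries lay above it. The means were 65.5 ± 9.54 and 54.5 ± 2.69 CPM (SD, n = 3 each), with a log2 change of 0.26 ± 0.11 (SE, adjusted p = 0.421 in edgeR). Without baicalin library 2, which had the highest Fgfr3 level as well as the highest choroid plexus and lowest CA1 marker sums, the log2 change was 0.15. The part of the choroid plexus and of CA1 cells in that value was not tested. Summed astrocyte markers (8 genes, none at 0) ran from 3496 to 3832 CPM with baicalin and 3440 to 3800 CPM with saline, and the log2 change was positive for 5 of the 8 (median 0.01). Slc1a2, a glutamate transporter gene, made up the largest part of these sums (1488 to 1817 CPM over baicalin libraries). Single astrocyte markers differed in direction. Aldoc and Gjb6 were higher in every baicalin library than in any saline library (log2 changes of 0.11 and 0.32, adjusted p = 0.423 and 0.379 in edgeR), and in baicalin library 2, highest in Fgfr3, Aldoc and Slc1a3 had their highest levels (801 and 548 CPM). Gja1 and Slc1a2 had their lowest levels in that library (98.7 and 1488 CPM). The part of astrocyte content in the Fgfr3 value was not tested. An unclassified transcript on the opposite strand, G630022F23Rik, shares 998 bases (13.9%) of the Fgfr3 exons and had 0.718 to 2.55 CPM.

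Promoter sequence from RefSeq (GRCm38.p6, the same assembly as mm10) was at hand for 7 of the 9 members. Where a gene had several entries, the first listed was taken. The sequences of Fgfr2 and Fgfr3, the receptors whose estimates had opposite signs, are shown. They are the 200 bases from 250 to 51 bases before the RefSeq start of that entry. Each is written 5′ to 3′ on the gene's strand, with matches to the GC box in capitals.
Fgfr2, chr7:130266859-130267058, minus strand: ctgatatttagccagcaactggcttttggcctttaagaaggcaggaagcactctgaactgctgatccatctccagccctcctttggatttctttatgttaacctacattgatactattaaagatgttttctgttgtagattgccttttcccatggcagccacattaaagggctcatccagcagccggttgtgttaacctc
Fgfr3, chr5:33721474-33721673, plus strand: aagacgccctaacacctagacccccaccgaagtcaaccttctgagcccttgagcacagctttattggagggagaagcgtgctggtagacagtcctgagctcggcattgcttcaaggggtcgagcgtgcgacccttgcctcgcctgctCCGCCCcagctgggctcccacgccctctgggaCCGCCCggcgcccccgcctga

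These windows differ in base composition. Fgfr3 is 65.0% G and C with 14 CpG dinucleotides, and Fgfr2 is 44.0% with 1, against medians of 51.5% and 4 over 32851 promoter windows of the same length. The GC box (GGGCGG, or CCGCCC read on the other strand) occurs 2 times in the Fgfr3 window and 0 times in the Fgfr2 window, and 24.6% of all windows hold it. A CCAAT box (CCAAT or ATTGG) occurs 1 time for Fgfr3 and 0 times for Fgfr2 (28.4% of all windows). The TATA box (TATAAA or TTTATA, 9.14% of windows) and the cAMP response half-site (TGACG or CGTCA, 12.7%) are in neither window. All windows end 51 bases before the start, so a TATA box nearer to it would not be seen. Whether these promoters have one is therefore not shown. The Fgfr2 window lies within the annotated span of the gene given above. These matches are letters in a window and not measured binding.

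Within each library, the make-up of the receptor transcripts can be read per length and without scaling between libraries. These shares and ratios were chosen after the values had been seen and are given as a description. Fgfr1 made up 51.7, 43.5 and 49.3% of the summed FPKM of the 3 receptor genes in baicalin libraries 1 to 3, and 54.5, 53.0 and 52.7% in saline libraries 1 to 3. Fgfr3 made up 36.4, 43.3 and 39.4% with baicalin and 31.3, 33.6 and 32.9% with saline. Fgfr2 made up 11.9, 13.2 and 11.3% with baicalin and 14.1, 13.5 and 14.4% with saline. For all 3 genes the groups did not overlap. The shares of Fgfr1 and Fgfr2 were lower and that of Fgfr3 higher in each baicalin library. The shares of a library add up to the whole, so they are not separate results. How often shares or ratios of other genes lack overlap was not computed. The ratio of Fgfr3 to Fgfr2 was 3.05, 3.29 and 3.49 with baicalin against 2.22, 2.49 and 2.28 with saline. That log2 ratio differed by 0.49 between the groups, and by 0.44 to 0.54 with any 1 library left out. The Fgfr3 to Fgfr1 ratio was 0.703, 0.996 and 0.799 against 0.575, 0.633 and 0.624, a log2 difference of 0.43 that was 0.30 without baicalin library 2. The ratio of Fgfr2 to Fgfr1 overlapped between the groups, at 0.231, 0.303 and 0.229 with baicalin and 0.259, 0.254 and 0.273 with saline. The summed FPKM of the 3 receptors overlapped between groups, at 20.1 ± 1.28 with baicalin against 20.5 ± 0.676 with saline (SD, n = 3 each).

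**Figure D2:**
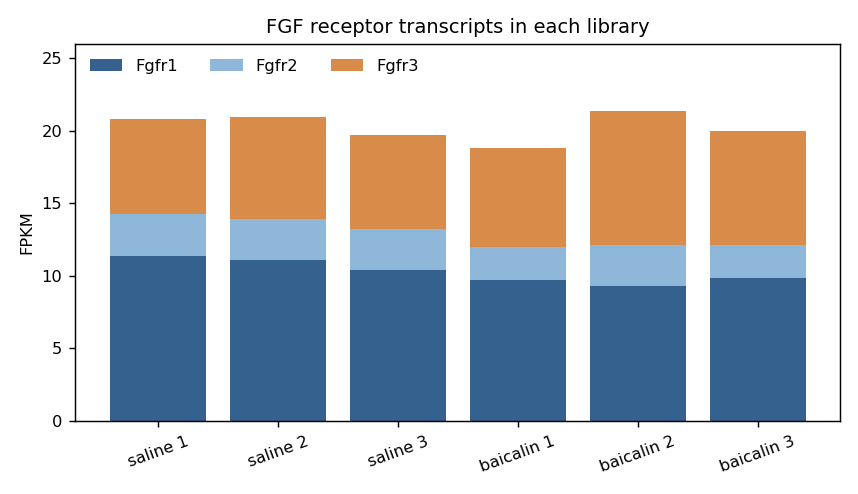
FPKM of Fgfr1, Fgfr2 and Fgfr3 stacked for each library, from 0. The height of the whole bar overlaps between groups, and the Fgfr3 segment makes up 36.4 to 43.3% of it with baicalin and 31.3 to 33.6% with saline.

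Of the other receptor genes, Fgfrl1, which encodes an FGF-binding receptor without the intracellular kinase domain, had the lowest log2 change in the family. Its levels were 4.43, 4.49 and 4.29 CPM in baicalin libraries 1 to 3 and 5.62, 6.02 and 6.97 CPM in saline libraries 1 to 3. The groups did not overlap, and the baicalin libraries lay close together. The log2 change was -0.49 ± 0.12 (SE, adjusted p = 0.322 in edgeR), and it stayed between -0.57 and -0.31 across 18 alternatives. Fgfr4, a receptor best known from liver and muscle, had at most 8 counts in any library. Of the 4 receptor genes tested, 3 had no overlap between groups in the lower direction, beside 9.52% of all genes tested. In edgeR 0 of the 4 were called, beside 0.0456% of all genes tested.

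The secreted ligands Fgf1 and Fgf9 overlapped between the groups. Fgf1 (ENSMUSG00000036585, chromosome 18), a ligand of all the FGF receptors, had 46.2, 34.4 and 47.0 CPM in baicalin libraries 1 to 3 and 44.8, 47.0 and 50.6 CPM in saline libraries 1 to 3. Only baicalin library 2 lay apart from the rest, and it was the lowest. The log2 change was -0.16 ± 0.13 (SE, adjusted p = 0.641 in edgeR), and -0.03 without that library. Fgf9 (ENSMUSG00000021974, chromosome 14, 58070547 to 58112720), a ligand made largely by neurons, had 13.1, 11.4 and 12.3 CPM with baicalin and 16.7, 12.5 and 11.9 CPM with saline. Saline library 1 was the highest, and the other 5 libraries overlapped. Its log2 change of -0.16 ± 0.15 (SE, adjusted p = 0.679 in edgeR) was 0.01 without saline library 1.

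Fgf2 (ENSMUSG00000037225, chromosome 3, 37348346 to 37410108), the astrocytic ligand also called basic FGF, varied more within each group than any other member. Its counts were 161, 46 and 435 in baicalin libraries 1 to 3 and 389, 62 and 654 in saline libraries 1 to 3, or 2.50, 0.703 and 7.19 CPM against 5.86, 0.936 and 9.58 CPM. In both groups library 3 was the highest and library 2 the lowest, and the groups overlapped. Between the lowest and the highest library the level differed 10.2-fold within each group. The within-group SD of log2(CPM + 0.1) was 1.64, larger than that of 99.2% of 3708 genes with a mean of 0.3 to 1 FPKM, whose median SD was 0.31. Over the other members the highest library was at most 1.47-fold the lowest. The log2 ratio of the group means was -0.66 and ran from -1.77 without baicalin library 3 to 0.03 without saline library 3. With the filter at a mean of 0.1 FPKM, Fgf2 entered the edgeR test and had an adjusted p of 0.856.

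Part of the Fgf2 gene is transcribed from both strands. Nudt6, known as the FGF2 antisense gene, shares 640 exon bases with it (9.44% of Fgf2 exons) and had 1.59, 2.09 and 2.58 CPM in baicalin libraries 1 to 3 and 1.60, 2.81 and 2.40 CPM in saline libraries 1 to 3. Nudt6 was lowest in library 1 of each group and Fgf2 in library 2. The sources used here do not say whether counting used strand. Summed astrocyte markers were 3832, 3496 and 3505 CPM in baicalin libraries 1 to 3 and 3648, 3440 and 3800 CPM in saline libraries 1 to 3. They were in the order of Fgf2 in saline, and in baicalin they were also lowest in library 2 but highest in library 1. The part of astrocyte content in the Fgf2 level was not tested. Saline library 3, highest in Fgf2, had the highest sum of 6 meningeal fibroblast markers (none at 0), 98.9 CPM against 49.9 to 58.5 CPM in the others. Baicalin library 3, second in Fgf2, had 54.1 CPM. The part of meningeal tissue in the Fgf2 level was not tested.

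Of the other secreted ligands, Fgf5, Fgf10 and Fgf16 passed the filter, and their groups overlapped. Fgf10, a ligand of epithelial and developing tissues, had 18.2 ± 1.44 CPM with baicalin against 21.0 ± 2.23 CPM with saline (SD, n = 3 each), with a log2 change of -0.20 (adjusted p = 0.489 in edgeR), and -0.13 without saline library 1. Fgf5 had a log2 change of 0.25 and Fgf16 of 0.12, with adjusted p-values of 0.579 and 0.857 in edgeR. Without saline library 2 Fgf5 was at 0.11, and with any 1 library left out Fgf16 ran from -0.13 to 0.28. Fgf7, Fgf15, Fgf17, Fgf18, Fgf21, Fgf22 and Fgf23 were listed with at least 1 count in some library but lay below the filter, Fgf18 closest to it with a mean of 0.978 FPKM. Fgf3, Fgf4 and Fgf6 were at 0 counts in all 6 libraries. Fgf8 and Fgf20 matched no row of the genes listed.

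The homologous factors Fgf12, Fgf13 and Fgf14 differed least between the groups. Fgf13 (ENSMUSG00000031137, chromosome X, 59062145 to 59568071), which encodes a sodium channel and microtubule binding protein of neurons, had 292, 277 and 297 CPM in baicalin libraries 1 to 3 and 285, 267 and 269 CPM in saline libraries 1 to 3. Saline library 1 lay within the baicalin range, and the other saline libraries lay below it. The log2 change was 0.08 ± 0.05 (SE, adjusted p = 0.540 in edgeR), and -0.00032 with TPM-based scaling. Fgf12 (ENSMUSG00000022523, chromosome 16, 28160098 to 28564951) had 59.7, 61.5 and 52.9 CPM against 58.9, 62.3 and 57.8 CPM, and a log2 change of -0.04 ± 0.07 (SE). Fgf14 (ENSMUSG00000025551, chromosome 14, 123977907 to 124677127), mutated in a hereditary ataxia in people, had 31.9, 29.4 and 29.1 CPM against 30.8, 31.3 and 29.0 CPM, and a log2 change of -0.01 ± 0.07 (SE). For Fgf12 and Fgf14 the ranges of the groups overlapped, with adjusted p-values of 0.848 and 0.949 in edgeR.

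Fgf11, the remaining homologous factor, was not among the chosen members but is a paralog of them. It had 36.0, 35.0 and 36.1 CPM in baicalin libraries 1 to 3 and 44.5, 45.3 and 36.8 CPM in saline libraries 1 to 3. All baicalin libraries lay below all saline libraries, saline library 3 only just above them. The log2 change was -0.24 ± 0.09 (SE, adjusted p = 0.396 in edgeR). Of the summed FPKM of the 4 homologous factors, Fgf13 took 71.7 ± 1.16% with baicalin and 68.9 ± 1.56% with saline, and Fgf11 took 11.7 ± 0.0981% against 14.0 ± 1.22% (SD, n = 3 each).

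**Figure D3:**
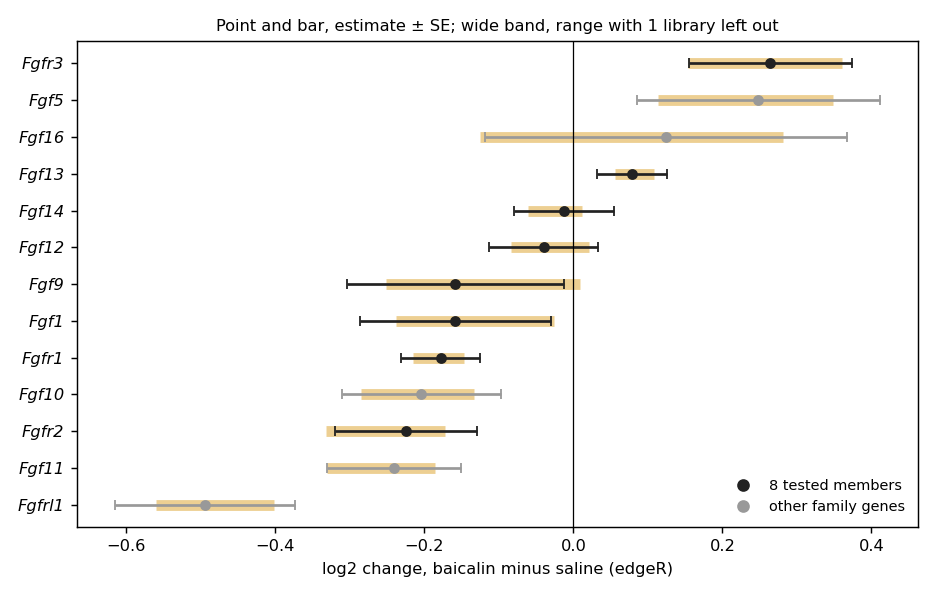
Log2 change (baicalin minus saline, horizontal axis) of the 13 FGF family genes tested, as edgeR estimates with SE. The wide band is the range when any 1 library is left out, and it crosses 0 for Fgf9, Fgf12, Fgf14 and Fgf16.

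Per length, Fgf13 stood far above the other members. Its deposited FPKM averaged 61.3 over the 6 libraries (58.1 to 64.0), and it exceeded every other member in each library. Fgfr1 came next with 10.3 FPKM (9.30 to 11.4), ahead of Fgf1 with 8.48 (6.52 to 9.58), Fgf12 with 8.32 (7.37 to 8.79), Fgfr3 with 7.34 (6.49 to 9.26) and Fgf14 with 6.34 (6.01 to 6.68). Neighbours in this run from Fgfr1 to Fgf14 had overlapping ranges. Fgfr1 was nevertheless above Fgf1, and Fgfr3 above Fgf14, in each of the 6 libraries, whereas Fgf1 was above Fgf12 in 5 and Fgf12 above Fgfr3 in 4. Fgfr2 with 2.66 FPKM and Fgf9 with 2.44 FPKM could not be ordered, since Fgfr2 was higher in 3 libraries of 6. Fgf2 was lowest at 0.573 FPKM (0.0894 to 1.24). These values divide by the length of all annotated exons joined, which for genes with long alternative exons, such as Fgfr2 at 10328 bases, gives a lower level than the length of 1 transcript would. The length used for Fgf1 was 0.850 to 0.852 of its joined exons in the annotation used here. The other members fitted within 0.544% in libraries where they had at least 200 counts. Fgf2 had fewer in baicalin libraries 1 and 2 and in saline library 2, and was not checked there. On the joined length, Fgf1 was at a mean of 7.22 FPKM (5.55 to 8.15), above Fgf12 in 1 of 6 libraries, above Fgfr3 in 4 and above Fgf14 in 5, so its place in the order depends on the length.

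**Figure D4:**
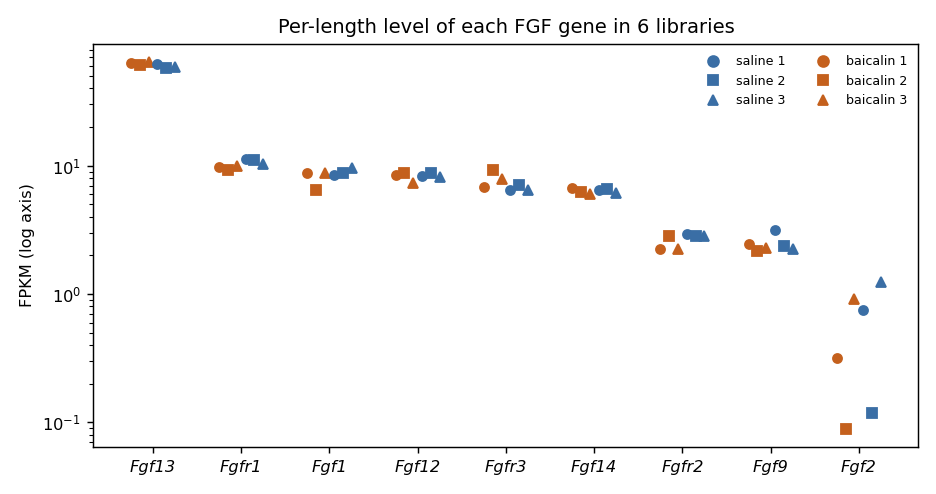
Deposited FPKM (log axis) of the 9 FGF genes in each of the 6 libraries, ordered by mean. Fgf13 lies above all others, Fgfr1 to Fgf14 form a run of overlapping ranges, and Fgf2 spreads from 0.0894 to 1.24 FPKM.

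In the wider pathway, 5 lists of genes around the receptors held 69 tested genes. None of these was called in edgeR, where only 0.0456% of all genes tested were called. Feedback inhibitors and ERK-responsive targets had the lowest median log2 change of these lists, -0.16, with 11 of 14 tested genes negative. The groups did not overlap for 5 of the 14 in the lower direction and 1 in the higher, where 9.52 and 9.93% of all genes tested did so. Dusp6, which encodes an ERK phosphatase induced by FGF signalling, had 46.4, 47.0 and 46.6 CPM in baicalin libraries 1 to 3 and 67.0, 73.7 and 59.1 CPM in saline libraries 1 to 3. Every baicalin library was below every saline library, and the baicalin values were nearly equal. Its log2 change was -0.51 ± 0.09 (SE), with an adjusted p of 0.213 in edgeR and of 6.6e-05 in DESeq2. DESeq2 called 211 genes in the whole table, where edgeR called 6. Dusp6 did not pass in 18 of 19 alternatives.

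The Spred genes, which encode membrane inhibitors of RAS to RAF signalling, also had no overlap between groups. They are named here because their values were seen. Spred1 had 116 to 123 CPM with baicalin and 139 to 142 CPM with saline, Spred2 97.3 to 103 against 111 to 119 CPM, and Spred3 54.8 to 65.5 against 68.0 to 70.4 CPM. Log2 changes were -0.22, -0.20 and -0.19, with adjusted p-values of 0.227, 0.322 and 0.407 in edgeR. Cbl, an E3 ubiquitin ligase gene, had the lowest log2 change of the list (-0.58), with 30.5 CPM in baicalin library 3 and 91.8 to 116 CPM in the other 5 libraries. Without baicalin library 3 the value was -0.21. The highest were Spry1, a Sprouty inhibitor gene, and the ETS factor gene Etv4 (0.66 and 0.23). Spry1 had 0.0879 CPM in saline library 3 and 9.02 to 11.4 CPM in the other 5, and its log2 change was 0.08 without that library.

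Receptor adaptors had a median log2 change of -0.07, with 10 of 14 negative. The groups did not overlap for 4 lower (Crk, Gab1, Sos1 and Sos2) and 1 higher (Ptpn11) of the 14, beside 9.52% and 9.93% of all genes tested. Crk, an SH2 and SH3 adaptor gene, had 36.7, 37.5 and 36.6 CPM with baicalin and 83.7, 91.2 and 43.6 CPM with saline. Its log2 change was -0.98 ± 0.26 (SE, adjusted p = 0.324 in edgeR), and it did not pass in 18 of 19 alternatives. It passed without saline library 3 (adjusted p = 0.0119 in edgeR), the saline library nearest to the baicalin values, so that pass is no further support. Grb2, which couples receptors to the RAS activator SOS, had 174, 166 and 166 CPM with baicalin and 74.8, 168 and 72.9 CPM with saline. Saline library 2 lay within the baicalin range and the other saline libraries at under 75 CPM. The log2 change was 0.68 ± 0.32 (SE, adjusted p = 0.454 in edgeR), and Grb2 did not pass in 18 of 19 alternatives. It passed without saline library 2 (adjusted p = 0.00335 in edgeR). Leaving out the only overlapping saline library sets the groups apart, so that pass is no further support. The levels of Crk, Grb2, Cbl and Spry1 thus differed widely between single libraries of a group. The rules by which reads were assigned to these genes are not stated, and their part in the differences was not tested. With any 1 library left out, Shc3, at -0.31, ran from -0.48 to -0.20, and Frs3, a docking protein gene at 0.12, from 0.02 to 0.24. Frs2, which encodes the main docking protein of these receptors and is named after its value was seen, was at -0.05.

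Co-receptors and binding partners had a median of 0.02, with 8 of 14 positive. The groups did not overlap for 3 higher (Sdc4, Gpc4 and Gpc5) and 1 lower (Flrt2) of the 14, beside 9.93% and 9.52% of all genes tested. Sdc4, which encodes a heparan sulfate proteoglycan, had 93.0, 89.3 and 93.6 CPM in baicalin libraries 1 to 3 and 70.4, 76.3 and 73.7 CPM in saline libraries 1 to 3. The groups lay apart by more than their spread. Its log2 change was 0.32 ± 0.05 (SE), with an adjusted p of 0.212 in edgeR and of 0.000419 in DESeq2. Sdc4 did not pass in 18 of 19 alternatives, and DESeq2 called 211 genes in the whole table against 6 in edgeR. Gpc4, a glypican gene, was at 0.17, and at 0.08 without saline library 2. The fibronectin and leucine-rich transmembrane protein genes Flrt1 and Flrt2 were at -0.51 and -0.35. Kl, which encodes the FGF23 co-receptor Klotho, had 29.2 to 32.1 CPM with baicalin and 29.0 to 32.1 CPM with saline.

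RAS, ERK and PI3K kinase genes had a median of 0.01, with 9 of 17 positive, and 1 gene without overlap in each direction, Mapk3 (higher) and Pik3ca (lower), beside 9.93% and 9.52% of all genes tested. Mapk3, which encodes ERK1, was at 0.23 and Nras at 0.11, against -0.46 for Pik3ca and -0.12 for Braf. Without saline library 2, Mapk3 was at 0.10 and Pik3ca at -0.23. With any 1 library left out, Braf ran from -0.20 to -0.08 and Nras from -0.11 to 0.25. Adjusted p-values of these 17 genes were 0.401 or more in edgeR. Sodium channel and other partners of the homologous factors had a median of 0.03, with 7 of 10 positive, and 2 of the 10 (Scn2a and Cacna1a) were lower without overlap, beside 9.52% of all genes tested. Scn2a, which encodes a sodium channel of excitatory neurons, had 112, 111 and 98.4 CPM with baicalin and 193, 220.1 and 126 CPM with saline, with a log2 change of -0.75 ± 0.19 (SE). Its adjusted p was 0.323 in edgeR, and Scn2a did not pass in 17 of 19 alternatives. In DESeq2, which called 211 genes in the whole table against 6 in edgeR, its adjusted p was 0.00231. Without saline library 3, the saline library nearest to the baicalin values, it was 0.0478 in edgeR. Scn3b was at -0.24 (-0.41 to -0.10 with any 1 library left out), Scn3a at 0.26 (-0.04 to 0.56) and Scn8a at 0.21 (-0.10 to 0.80). Scn8a also differed widely within groups, at 361, 192 and 254 CPM with baicalin and 120, 189 and 386 CPM with saline.

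**Figure D5:**
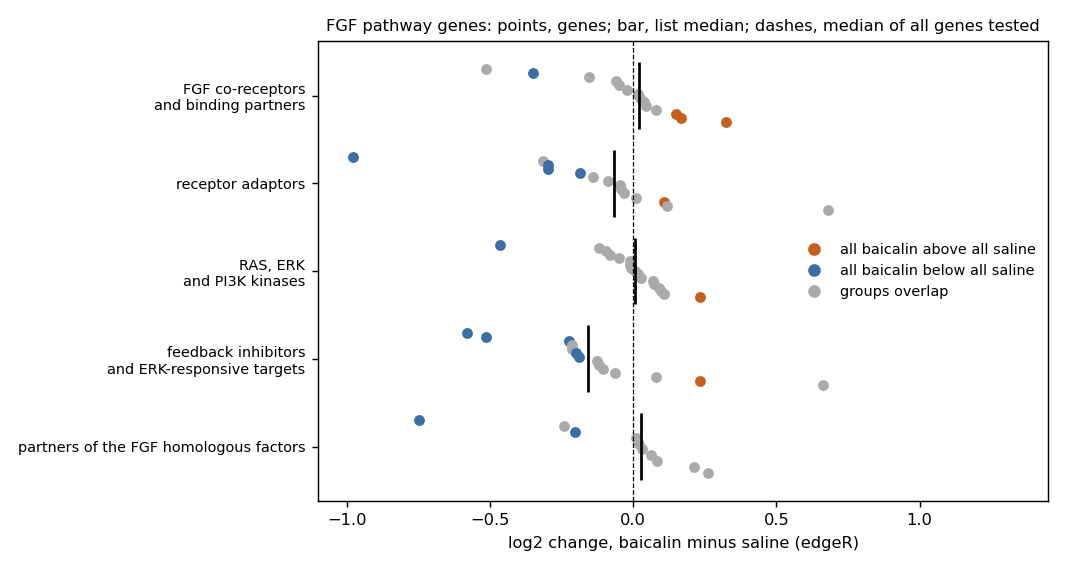
Log2 change (baicalin minus saline, horizontal axis) of the tested genes in 5 FGF pathway lists. Points are genes, coloured where the groups do not overlap, bars are list medians and the dashed line is the median of all genes tested. Feedback inhibitors and ERK-responsive targets have the lowest median, at -0.16.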

How the data were processed

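Hippocampal total RNA was depleted of ribosomal RNA and sequenced, per the labels' protocols. The authors deposited 1 table with whole-number read counts and FPKM values per gene and library, per the file headers. The counts were taken as unnormalized. Their column totals differ, which alone does not show this. The submitters' processing notes name HISAT2, StringTie, limma, DESeq2 and bcl2fastq 2.0 with build mm10, without their roles. Another 12 columns of per-sample values that match no label were left out. Counts and FPKM fitted joined exon lengths of GENCODE mouse release M21 within 1% for 95.4 to 95.6% of genes with at least 200 counts.

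The filter kept genes whose mean reached 1 FPKM. Counts were TMM-scaled and tested with edgeR 4.0.16 (quasi-likelihood, treatment term, Benjamini-Hochberg over all genes, threshold 0.05) under R 4.3.3, and the test was tried on simulated counts. Levels are TMM-scaled CPM. The SE was derived from the log2 change and its F statistic. Alternatives used DESeq2 1.42.0, limma 3.58.1 (on log2(FPKM + 1) and log2(FPKM + 0.1), and voom), other scalings, filters and covariates, and each library left out. Members and gene lists were chosen with earlier results of these data known. Named were all family genes and, per pathway list, the 2 highest and 2 lowest log2 changes, and genes outside this rule (Kl, Frs2, Spred1 to Spred3, and those named with a count of groups that did not overlap) were chosen after their values were seen. Ranges and group sums of 15 marker lists were computed, and those that move with a result or bear on it are given.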

Additional observations from a re-analysis of the deposited data

How the results depend on the processing

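In all 19 alternatives 0 of the tested members were called. The number of members at an unadjusted p under 0.05, 2 in the main test, ran from 0 to 3 across these alternatives. It was 0 to 2 with 1 library left out. The number of genes called in the whole table, 6, was 211 with DESeq2, 0 with the replicate number as a block, and 2 to 39 with 1 library left out (39 and 2 on dropping baicalin libraries 1 and 3, 10 and 14 on dropping saline libraries 2 and 3). The labels give both groups the numbers 1 to 3, and deviations of same-numbered libraries correlated at 0.12, 0.08 and 0.01. Libraries of unlike number ran from -0.10 to 0.036. Every library correlated best with its own number except baicalin library 3, which did so with saline library 2 (0.036). The correlations were low, and whether the numbers are pairs was not settled. The main test did not treat them as pairs, and the replicate block is given as an alternative. With the replicate block, Fgfr1, Fgfr2 and Fgfr3 had log2 changes of -0.18, -0.23 and 0.26. Fgfr1, Fgfr2, Fgfr3 and Fgf1 kept their sign throughout. Signs turned for Fgf9 without saline library 1 (-0.25 to 0.0085 with any 1 library left out), Fgf12 without baicalin library 3 (-0.084 to 0.021 likewise), Fgf13 with TPM-based scaling (-0.00032), and Fgf14 with 1 library left out (-0.060 to 0.011). With 1 library left out, signs also turned for Fgf16 (-0.13 to 0.28), Nras (-0.11 to 0.25), Scn8a (-0.10 to 0.80) and Scn3a (-0.037 to 0.56). The receptor list median, -0.20, was -0.28 with TPM-based scaling, -0.14 with the length trend removed and 0.038 with a filter of 5 FPKM, which leaves Fgfr1 and Fgfr3 alone. Under the same scaling the medians of co-receptors and of kinases were -0.056 and -0.070, and with the length trend removed 0.064 and 0.044. The cause of these shifts was not tested.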

Other observations

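For each member, the genes most like it in log2 CPM over the 6 libraries were sought among 11575 named genes tested. For Fgfr1 these were Ifngr2 and Rpp14 (Pearson r = 0.997 and 0.994), for Fgfr2 Zfp597 and Cog6 (0.999 and 0.998), and for Fgfr3 Carhsp1 and Gadd45a (0.990 and 0.989). For Fgf1 they were Nbl1 and Usf3 (0.991 and 0.991), for Fgf2 Tspan3 and Fam241a (0.979 and 0.973), and for Fgf9 Rtn4ip1 and Cmtm4 (0.993 and 0.967). For Fgf12 they were Tmem65 and Fkbp15 (0.990 and 0.986), for Fgf13 Slirp and Mrps33 (0.988 and 0.986), and for Fgf14 Ephx4 and Adpgk (0.991 and 0.986). The values share the same 6 libraries and their scaling, and describe these libraries only. They were picked as the highest of all these correlations over only 6 libraries. Such picking alone gives high values, so they do not show a close likeness.

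Among the 36 pairs of members, Pearson r over the 6 libraries ran from -0.81 for Fgf1 with Fgfr3 to 0.68 for Fgf1 with Fgf2. Baicalin library 2 was at once the lowest in Fgf1 and the highest in Fgfr3.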
